A study of Mus spretus with 12 samples.

Results

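NADPH is the electron donor that liver cells spend on fatty acid and sterol synthesis, on keeping glutathione and thioredoxin reduced, and on drug oxidation by cytochromes P450. This account follows 9 genes that supply it or that belong to the pentose phosphate pathway: G6pdx, Pgls, Pgd, Rpia, Tkt, Taldo1, Me1, Idh1 and H6pd. They were chosen by name, as the spots other than controls whose gene name in the scanner files equals 1 of these symbols. Earlier results of these data were known when the set was chosen. The 9 genes were read by 19 probes, out of 37074 gene names and 56605 probes on the array.

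The samples were livers of male Mus spretus of SPRET/EiJ, an inbred strain of wild origin, 22 months old at sampling and 20 months old at the start of 60 days of feeding. Mice of the group called DDE_PXM ate a Teklad diet with corn oil and 450 mg/kg of p,p'-DDE, a lasting breakdown product of the insecticide DDT, and had Pedro Ximenez grape must in their drinking water. The must water held polyphenols, 85 mg/L in total, beside glucose and fructose in equal parts at 31 g/L. Mice of the group called DDE ate the same p,p'-DDE diet without the must, and control mice ate the Teklad diet with corn oil only. No group received the polyphenols or the sugar of the must alone, so these cannot be told apart. No group received must without p,p'-DDE either, and the comparisons below ask what p,p'-DDE changed and what must added to it changed.

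Each group had 4 one-colour arrays. The labels call them replicates. The design text speaks of 4 mice in the must group and 4 in the control group, and pooling of RNA is not mentioned. The p-values therefore cover only how arrays of a group differ, and that difference may be technical. Values are log2 of the processed signal relative to the 75th percentile of the array, so they are levels of a probe and not of a transcript. Differences between 2 probes below are compared only between groups, and the size of such a difference within a group says nothing about the amounts of the 2 transcripts. Changes are differences between group means on that log2 scale with their standard error, tested with limma over 18678 genes, and an adjusted p under 0.05 makes a call. The number of arrays limits the precision. Between 50.12% and 52.01% of the spots of an array were well above background. Arrays of 1 group correlated at 0.9951 to 0.9974, and the median SD within groups was 0.109.

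The pentose phosphate pathway starts from glucose 6-phosphate. Its oxidative branch (G6pdx, Pgls and Pgd) makes NADPH and ribulose 5-phosphate, and G6pdx is the step that commits glucose to it. Its non-oxidative branch (Rpia, Tkt and Taldo1) makes no NADPH and interconverts the sugar phosphates with those of glycolysis. Malic enzyme (Me1) and isocitrate dehydrogenase (Idh1) supply NADPH in the cytosol by other routes, and H6pd does so inside the endoplasmic reticulum.

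All 9 genes had a probe well above background on all 12 arrays, so none entered through 1 bright group alone. Of the 19 probes, 14 were kept and the other 5 (2 of Pgd, 2 of Tkt and 1 of Me1) were not well above background on any array. No member probe was saturated and no member value was missing. Of these, 6 probes of 60 bases that appear to lie in coding sequence are shown here, for Me1, which had the widest range, for Tkt and for 3 genes with several kept probes. They were copied from the deposited scanner files with their mm9 positions, and run 5′ to 3′. The probes of the other genes and the further probes of Pgls are given by position only. Capitals mark the stop codon that ends the reading frame.
Me1 (chr9:86480571-86480630, minus strand): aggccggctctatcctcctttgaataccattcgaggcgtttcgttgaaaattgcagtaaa
Tkt (chr14:31386641-31386700, plus strand): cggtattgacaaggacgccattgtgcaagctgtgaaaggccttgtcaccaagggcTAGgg
Taldo1 (chr7:148587650-148587824, plus strand): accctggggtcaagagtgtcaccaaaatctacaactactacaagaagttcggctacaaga
Pgls, a middle probe by brightness (chr8:74119044-74119958, plus strand): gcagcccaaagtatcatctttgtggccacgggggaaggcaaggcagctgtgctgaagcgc
Idh1, the brighter probe (chr1:65206035-65206094, minus strand): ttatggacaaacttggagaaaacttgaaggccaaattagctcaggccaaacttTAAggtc
Idh1, the dimmer probe (chr1:65221829-65221888, minus strand): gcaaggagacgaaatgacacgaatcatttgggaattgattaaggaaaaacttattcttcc
The positions of the Taldo1 and Pgls probes span 175 and 915 bases, more than the 60 bases of the probe, so each aligns across a gap in the genome. The array was designed on the laboratory mouse. Whether the probes match the Mus spretus sequence was not checked.

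In DDE livers against control livers, 6 of the 9 genes were higher, G6pdx alone was lower, and Pgls and Rpia were not called. That is 7 of 9 called, against 50.3% of all tested genes, with 6 of 9 higher against 24.0% of all genes and 1 lower against 26.3%. The arrays of the 2 groups did not overlap for 7 of 9, against 46.4% of all genes. The member median was 0.304, against -0.0239 over all tested genes. In DDE_PXM livers against DDE livers, 7 of 9 were higher and none was lower, where 49.9% of all genes were called, 20.2% higher and 29.7% lower. The groups did not overlap for 8 of 9, against 44.7% of all genes, and the member median was 0.621 against -0.0402. Pgls and H6pd were the 2 genes without a call there. In DDE_PXM livers against control livers, 8 of 9 were higher, all but Pgls, where 70.9% of all genes were called, 31.6% higher and 39.3% lower. The groups did not overlap for 8 of 9, against 65.2% of all genes, and the member median was 0.824 against -0.0577. The comparisons share arrays, so these counts are not independent of each other.

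**Figure D1:**
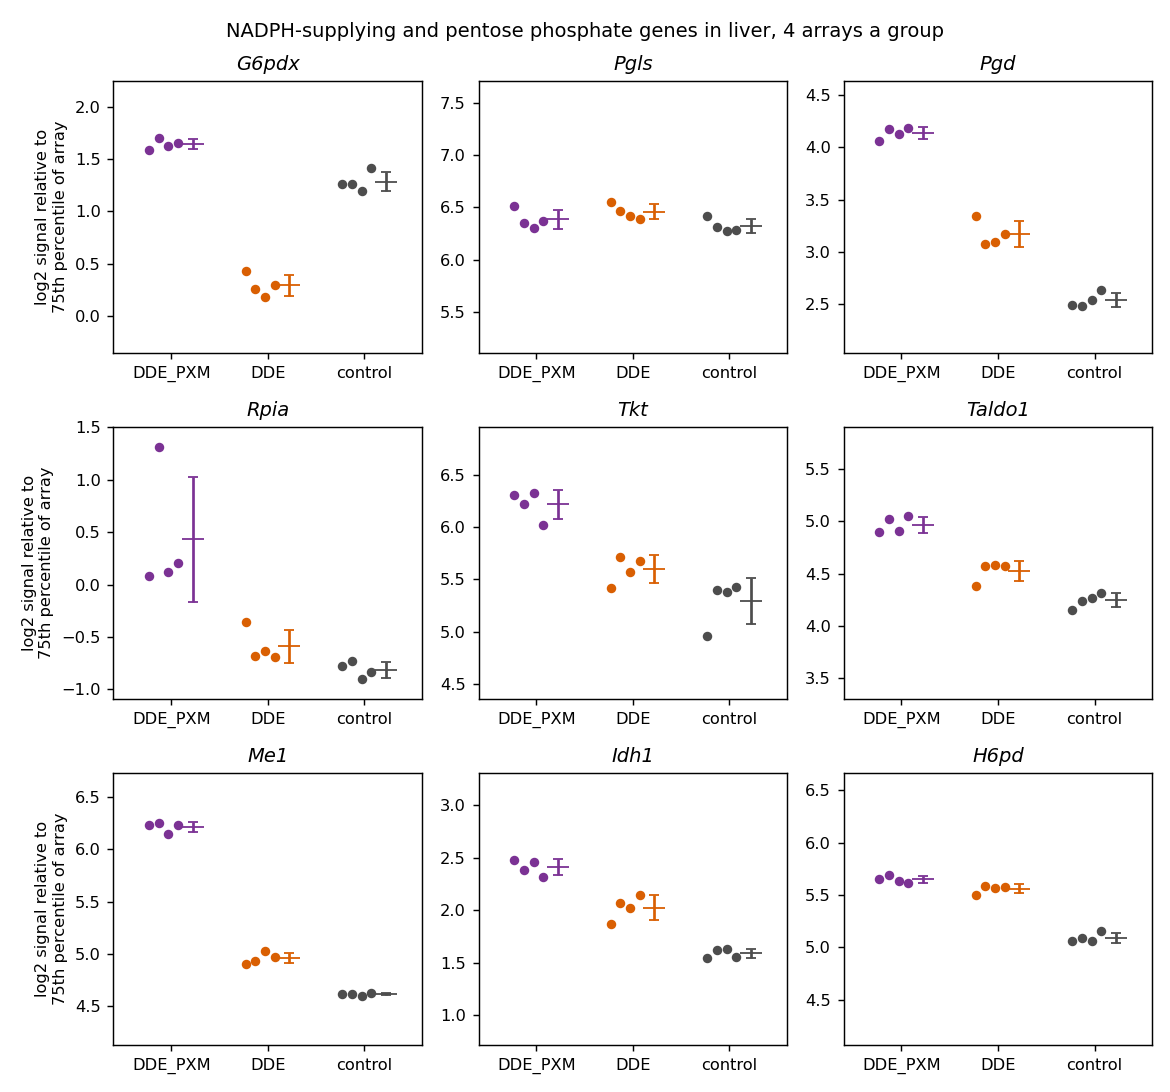
Log2 signal relative to the 75th percentile of the array for the 9 genes in DDE_PXM, DDE and control livers, 1 point an array, with the mean and SD of 4 arrays beside the points; all panels span the same log2 range. G6pdx is lowest in DDE, at 0.19 to 0.43, whereas Pgd, Me1, Idh1, H6pd, Tkt and Taldo1 have their lowest means in control.

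G6pdx, glucose 6-phosphate dehydrogenase, lies on the X chromosome and catalyses the first step of the oxidative branch. Its single probe maps to chrX:71654949-71655008 on the minus strand. The level was 1.59, 1.70, 1.62 and 1.66 on the DDE_PXM arrays, 0.43, 0.26, 0.19 and 0.30 on the DDE arrays and 1.26, 1.27, 1.20 and 1.41 on the control arrays. The 3 groups did not overlap, with DDE lowest and DDE_PXM highest. G6pdx fell by 0.99 ± 0.061 (SE) in DDE against control, which is 1.99-fold lower (adjusted p = 2.21e-07). It was 2.55-fold higher in DDE_PXM than in DDE (log2 change 1.35, adjusted p = 1.77e-08) and 1.28-fold higher than in control (log2 change 0.36, adjusted p = 0.000252). Before any scaling, its processed signal was 2132 to 2290 in DDE_PXM, 740 to 753 in DDE and 1181 to 1437 in control.

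Pgd, 6-phosphogluconate dehydrogenase, makes NADPH at the next oxidation of the same branch. Its probe at chr4:148524293-148524352 on the minus strand read 4.06, 4.18, 4.12 and 4.18 in DDE_PXM, 3.34, 3.07, 3.10 and 3.17 in DDE and 2.49, 2.49, 2.54 and 2.64 in control. All 3 groups stood apart, with control lowest and DDE_PXM highest. Pgd rose 1.55-fold in DDE against control (log2 change 0.63 ± 0.063, SE, adjusted p = 1.1e-05). It was 1.95-fold higher in DDE_PXM than in DDE (0.96, adjusted p = 3.85e-07) and 3.02-fold higher than in control (1.60, adjusted p = 2.01e-09). In DDE livers, then, both NADPH-making steps of the branch moved, with Pgd up and G6pdx down.

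The difference between these 2 probes on each array was tested after the values had been seen. Pgd minus G6pdx averaged 2.88 ± 0.046 in DDE and 1.25 ± 0.057 in control (log2, SD, n = 4 arrays each), so the change of Pgd exceeded that of G6pdx by 1.62. In DDE_PXM the difference was 2.49 ± 0.026 (SD, n = 4), which is 0.39 below DDE and 1.24 above control. Each of these 3 contrasts had p = 0.0286 in a two-sided exact permutation test of 4 arrays against 4, the smallest p that this design can give, and 0.0322 after adjustment over the 9 contrasts tested in this way. The difference thus stayed above control in the livers given must, although both genes were highest there.

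Pgls, 6-phosphogluconolactonase, hydrolyses the product of G6pdx and makes no NADPH itself. Its brightest probe, at chr8:74120108-74120166 on the plus strand, read 6.52, 6.35, 6.30 and 6.37 in DDE_PXM, 6.55, 6.47, 6.42 and 6.39 in DDE and 6.41, 6.32, 6.27 and 6.29 in control. The groups overlapped, and the group means spanned only 0.135. The change was 0.14 in DDE against control, with a 95% interval of 0.0077 to 0.263 and an adjusted p of 0.0729. It was -0.07 in DDE_PXM against DDE (interval -0.20 to 0.054, adjusted p = 0.32) and 0.06 in DDE_PXM against control (interval -0.065 to 0.19, adjusted p = 0.355). Both comparisons of DDE_PXM depend on the scaling. DDE_PXM against DDE turned positive under 4 of the 5 other scalings, to 0.36 (adjusted p = 8.09e-05) with the authors' deposited values. Under the same 4, DDE_PXM against control was called, at 0.44 to 0.61. DDE against control stayed positive under all 5 and was called under each, at 0.15 to 0.37. With the mean of the Pgls probes, DDE against control and DDE_PXM against control were -0.035 and -0.098, without a call.

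The other 2 Pgls probes did not move together. The probe printed above averaged 3.40 in DDE_PXM, 3.37 in DDE and 3.16 in control, and was higher in DDE than in control by 0.22 (adjusted p = 0.021 over all 27098 kept probes). The dimmest, at chr8:74119487-74119546, averaged -2.82 in DDE_PXM, -2.67 in DDE and -2.21 in control. It was 0.61 lower in DDE_PXM than in control (adjusted p = 0.0233), the opposite direction of the probe printed above, which was 0.25 higher (adjusted p = 0.00643).

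Tkt, transketolase, moves 2-carbon units between sugar phosphates. Its probe, which ends at the stop codon shown above, read 6.30, 6.22, 6.32 and 6.02 in DDE_PXM, 5.42, 5.71, 5.58 and 5.68 in DDE and 4.96, 5.40, 5.38 and 5.43 in control. DDE_PXM stood above the other groups, and DDE overlapped control. Tkt was 1.54-fold higher in DDE_PXM than in DDE (0.62, adjusted p = 0.000756) and 1.90-fold higher than in control (0.92, adjusted p = 1.52e-05). Its 1.23-fold rise in DDE against control (0.30 ± 0.111, SE, adjusted p = 0.0394) was lost in 9 of 27 alternatives and was 0.19 without control replicate 1 (adjusted p = 0.0904).

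Taldo1, transaldolase, moves 3-carbon units in the same branch. Its probe printed above, brighter than the second by the mean over all arrays though only in DDE_PXM by group, read 4.90, 5.02, 4.91 and 5.05 in DDE_PXM, 4.38, 4.57, 4.58 and 4.57 in DDE and 4.16, 4.24, 4.26 and 4.32 in control. The 3 groups did not overlap. Taldo1 rose 1.22-fold in DDE against control (0.28 ± 0.060, SE, adjusted p = 0.00225). It was 1.36-fold higher in DDE_PXM than in DDE (0.44, adjusted p = 0.000107) and 1.65-fold higher than in control (0.72, adjusted p = 6.83e-07). A second probe at chr7:148588764-148588823 showed smaller changes of the same sign, 0.16 (adjusted p = 0.0699), 0.26 (adjusted p = 0.00896) and 0.42 (adjusted p = 0.000175) in the same order.

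Rpia, ribose 5-phosphate isomerase, converts the product of the oxidative branch into the sugar of nucleotides. Its brighter probe, at chr6:70716013-70716072 on the minus strand, read 0.09, 1.32, 0.12 and 0.20 in DDE_PXM, -0.35, -0.68, -0.64 and -0.69 in DDE and -0.78, -0.73, -0.91 and -0.84 in control. The groups stood apart, but replicate 2 of DDE_PXM lay far above its 3 fellows. Rpia was 2.03-fold higher in DDE_PXM than in DDE (1.02 ± 0.228, SE, adjusted p = 0.00319) and 2.37-fold higher than in control (1.25, adjusted p = 0.000436). Without that replicate these changes were 0.73 (adjusted p = 7.45e-05) and 0.95 (adjusted p = 3.28e-06). The change in DDE against control was 0.22 (95% interval -0.28 to 0.73, adjusted p = 0.44) with all arrays, and its adjusted p was 0.0345 without DDE_PXM replicate 2, which enters the shared estimate of spread.

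The dimmer Rpia probe, at chr6:70732230-70732289, went the other way. It averaged -2.69 in DDE_PXM, -2.58 in DDE and -2.45 in control, and was 0.24 lower in DDE_PXM than in control (adjusted p = 0.00159). The rise of Rpia therefore rests on 1 of its 2 probes. Which exon or untranslated region each member probe reads was not looked up, since no gene annotation was used here.

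Me1, cytosolic malic enzyme, makes NADPH while turning malate into pyruvate and is known in rodent liver as a companion of fatty acid synthesis. Its probe, printed above, read 6.23, 6.25, 6.14 and 6.24 in DDE_PXM, 4.91, 4.94, 5.03 and 4.98 in DDE and 4.62, 4.62, 4.60 and 4.63 in control. The groups stood apart, and the spread within each was small. Me1 rose 1.27-fold in DDE against control (0.35 ± 0.040, SE, adjusted p = 3.63e-05), was higher in DDE_PXM than in DDE by 1.25 (adjusted p = 8.01e-10) and was 3.03-fold higher in DDE_PXM than in control (1.60, adjusted p = 5.4e-11). With Pgd it had the widest range of group means among the 9 genes.

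Idh1, cytosolic and peroxisomal isocitrate dehydrogenase, makes NADPH from isocitrate. Its brighter probe, which reaches the stop codon, read 2.48, 2.38, 2.46 and 2.32 in DDE_PXM, 1.87, 2.06, 2.02 and 2.14 in DDE and 1.55, 1.62, 1.63 and 1.55 in control. The 3 groups did not overlap. Idh1 rose 1.35-fold in DDE against control (0.44 ± 0.061, SE, adjusted p = 0.00014), was 1.31-fold higher in DDE_PXM than in DDE (0.39, adjusted p = 0.000335) and 1.77-fold higher than in control (0.82, adjusted p = 2.94e-07). The dimmer probe averaged -1.97 in DDE_PXM, -1.89 in DDE and -2.08 in control, and its changes of 0.19, -0.08 and 0.11 were not called (adjusted p = 0.542, 0.816 and 0.697). On the DDE_PXM arrays alone that probe spanned -2.88 to -1.46. With the mean of both probes, Idh1 was no longer called in DDE against control (0.32, adjusted p = 0.0855) or in DDE_PXM against DDE (0.15, adjusted p = 0.393).

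Me1 and Idh1, the 2 cytosolic suppliers outside the pathway, differed in their change in DDE_PXM against DDE. Idh1 stands here for its brighter probe. Me1 minus Idh1 averaged 3.81 ± 0.106 in DDE_PXM, 2.94 ± 0.101 in DDE and 3.03 ± 0.054 in control (log2, SD, n = 4 arrays each). The change of Me1 exceeded that of Idh1 by 0.87 in DDE_PXM against DDE and by 0.77 against control, each with the smallest exact permutation p of 0.0286 (adjusted 0.0322). In DDE against control the 2 changes differed by -0.09, with p = 0.171 in the same exact permutation test before and after adjustment. This pair, too, was chosen after the values had been seen.

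H6pd, the hexose 6-phosphate dehydrogenase of the endoplasmic reticulum, runs the first 2 reactions of the oxidative branch inside that compartment and feeds NADPH to 11-beta-hydroxysteroid dehydrogenase 1 (Hsd11b1). Its single probe, at chr4:149353626-149353685 on the minus strand, read 5.65, 5.69, 5.64 and 5.61 in DDE_PXM, 5.50, 5.59, 5.57 and 5.58 in DDE and 5.06, 5.09, 5.06 and 5.16 in control. H6pd rose 1.38-fold in DDE against control (0.47 ± 0.040, SE, adjusted p = 3.47e-06) and was 1.47-fold higher in DDE_PXM than in control (0.56, adjusted p = 2.38e-07). In DDE_PXM against DDE the groups stood apart but the change was only 0.09 (adjusted p = 0.0889), and it was called under each of the 5 other scalings, at 0.13 to 0.39. Hsd11b1 had values of -0.08 in DDE against control (adjusted p = 0.194) and 0.05 in DDE_PXM against DDE (adjusted p = 0.37). Of the 4 genes listed as its partners in that compartment, Hsd11b1 included, none was higher and 1 lower in DDE against control, and 2 were higher and none lower in DDE_PXM against DDE. All tested genes had 24.0% higher and 26.3% lower in the first comparison, and 20.2% and 29.7% in the second. The calls of the 4 partners depend on the scaling: all 4 were higher in DDE_PXM against DDE under the same 4 scalings that moved Pgls. In DDE against control 3 were higher and none lower under median centring. With quantile normalisation, normexp and quantile together or the deposited values, 1 was higher and none lower in that comparison.

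G6pdx and its counterpart in the endoplasmic reticulum moved in opposite directions with p,p'-DDE. H6pd minus G6pdx averaged 4.01 ± 0.045 in DDE_PXM, 5.27 ± 0.138 in DDE and 3.81 ± 0.049 in control (log2, SD, n = 4 arrays each). The change of H6pd minus that of G6pdx was 1.46 in DDE against control, -1.26 in DDE_PXM against DDE and 0.20 in DDE_PXM against control. The exact permutation p was 0.0286 in each (adjusted 0.0322). H6pd and G6pdx were paired after the values had been seen, and the adjustment covers only the 9 contrasts chosen in this way.

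**Figure D2:**
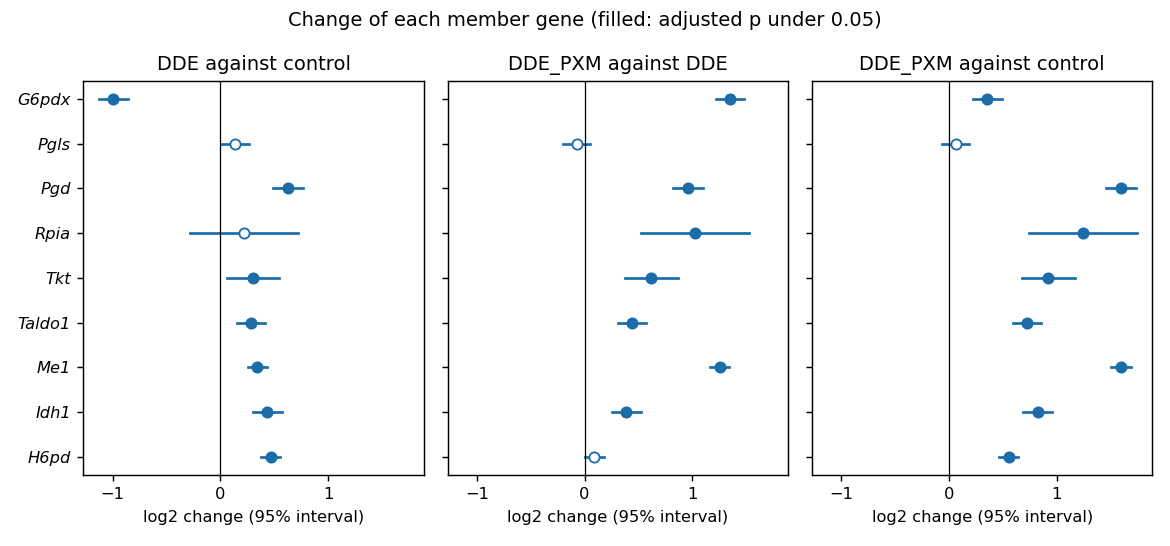
Log2 change of each gene in the 3 comparisons, with 95% intervals; filled points had an adjusted p under 0.05 with limma. G6pdx, at -0.99, is the only point called below 0, and Rpia has the widest intervals.

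**Figure D3:**
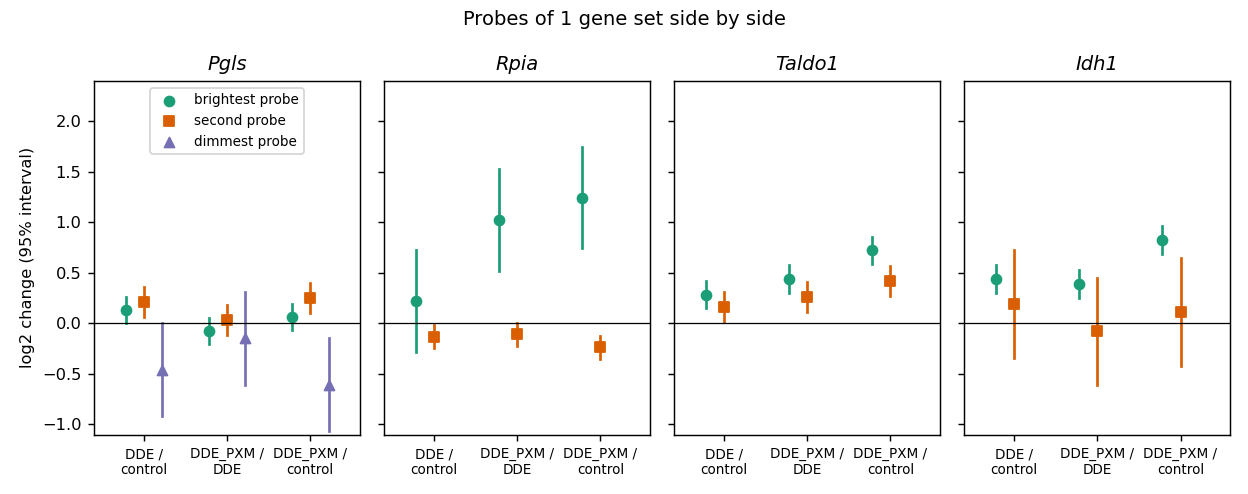
Log2 change of every kept probe of the 4 genes with more than 1, with 95% intervals, for the 3 comparisons; marker shape and colour rank the probes of a gene by brightness. The probes of Taldo1 move together, whereas the second probe of Rpia and the dimmest of Pgls lie below 0 in all 3 comparisons.

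Over the 14 kept probes rather than 9 genes, 7 were higher and 1 lower in DDE against control, where 47.5% of all kept probes were called. In DDE_PXM against DDE, 8 were higher and none lower, against 45.7% of kept probes called. In DDE_PXM against control, 10 were higher and 2 lower, against 68.6%.

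Across the 12 arrays, 7 of the 9 genes had their group means in the order control, DDE, DDE_PXM, all but G6pdx and Pgls. As a description over arrays that share the 3 groups, Pgd and Me1 correlated at r = 0.971, Pgd and Taldo1 at 0.963 and Tkt and Idh1 at 0.941. G6pdx correlated with Pgd at 0.376 and with H6pd at -0.111, and Pgls with Me1 at 0.0991.

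The genes most like Me1 over the 12 arrays were Vmn2r85 (r = 0.9936), Cish (0.993) and Rgp1 (0.9915), and 365 tested genes had r above 0.95 with it. Those most like Pgd were Armc5 (0.9955), Fam20c (0.9949) and Polr2a (0.9947), among 870 above 0.95. For G6pdx, added after its values were seen, only 59 genes were above 0.95, led by Pcolce (0.9935), Cyp21a1 (0.9902) and Cyp11a1 (0.9873). Cyp21a1 and Cyp11a1 are steroid hormone enzymes of the adrenal cortex.

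Because of that likeness, markers of other cells are given beside G6pdx. Shares over all tested genes stand here for the marker counts of this and the next paragraph. They were 24.0% higher and 26.3% lower in DDE against control, and 20.2% and 29.7% in DDE_PXM against DDE. For DDE_PXM against control they were 31.6% and 39.3%. In DDE against control, 8 of 9 adrenal cortex markers were lower and none higher (median -4.02), and in DDE_PXM against DDE 8 were higher and 1 lower (median 4.86). Their summed linear level was 186 to 193 in DDE_PXM, 153 to 162 in DDE and 158 to 179 in control, most of it from Fdx1, which many tissues express. Cyp11a1 and Cyp11b1 were not well above background on any DDE array. Star, which carries cholesterol into mitochondria, averaged 3.18 in DDE_PXM, -3.26 in DDE and 2.14 in control. Of 10 adipocyte markers, 2 were higher and 6 lower in DDE against control, and 4 were higher and 3 lower in DDE_PXM against DDE. The fat hormone Adipoq, 1 of these markers, averaged -0.78 in DDE_PXM, -2.48 in DDE and -0.48 in control. The summed adipocyte level did not follow G6pdx, at 70.1 to 77.8 in DDE_PXM, 90.8 to 99.5 in DDE and 102 to 107 in control. Cidec and Pnpla2, the 2 adipocyte markers higher in DDE than in control, weighed most in that sum. The 4 that were higher in DDE_PXM than in DDE (Adipoq, Retn, Cfd and Plin4) had their lowest means in DDE, as G6pdx did.

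Of 9 hepatocyte markers, the defining ones of the labelled tissue, 1 was higher and 3 lower in DDE against control, and 7 were lower in DDE_PXM against DDE. In DDE_PXM against control 1 was higher and 6 were lower (median -0.314), Apoa1 by -0.53 and Ttr by -0.22. Their summed level was 4324 to 4733 in DDE_PXM, 4206 to 5118 in DDE and 5233 to 5750 in control. The lowest DDE sum is that of replicate 1, where Alb had no value and was left out. On the other DDE arrays Alb averaged 9.83 (log2), so that lowest sum is not comparable with the rest. All 12 pancreatic acinar markers were higher in DDE_PXM than in DDE (median 2.69), where G6pdx and 6 further member genes were higher too. All 12 were also higher in DDE_PXM than in control (median 2.44). Their summed level was 2432 to 2488 in DDE_PXM, 500 to 566 in DDE and 663 to 714 in control. In DDE against control, 10 of the 12 acinar markers were lower and none higher (median -0.276). All 12 skeletal muscle markers were lower in DDE than in control (median -1.35). So were 10 of 12 Kupffer cell, 7 of 8 T and NK cell and all 6 B and plasma cell markers, and none of these was higher. In DDE_PXM against DDE all 8 neutrophil markers were lower (median -1.59), as were 11 of 12 skeletal muscle markers (median -0.435). Also lower there were 9 of 12 Kupffer cell, 5 of 8 T and NK cell and 3 of 6 B and plasma cell markers. Of 6 cholangiocyte markers 4 were higher there, and of 6 erythroid markers 4 were lower. The part of these cells in the change of G6pdx or of any other member was not tested, and in bulk liver fewer cells of a type cannot be told apart from less RNA per cell.

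**Figure D4:**
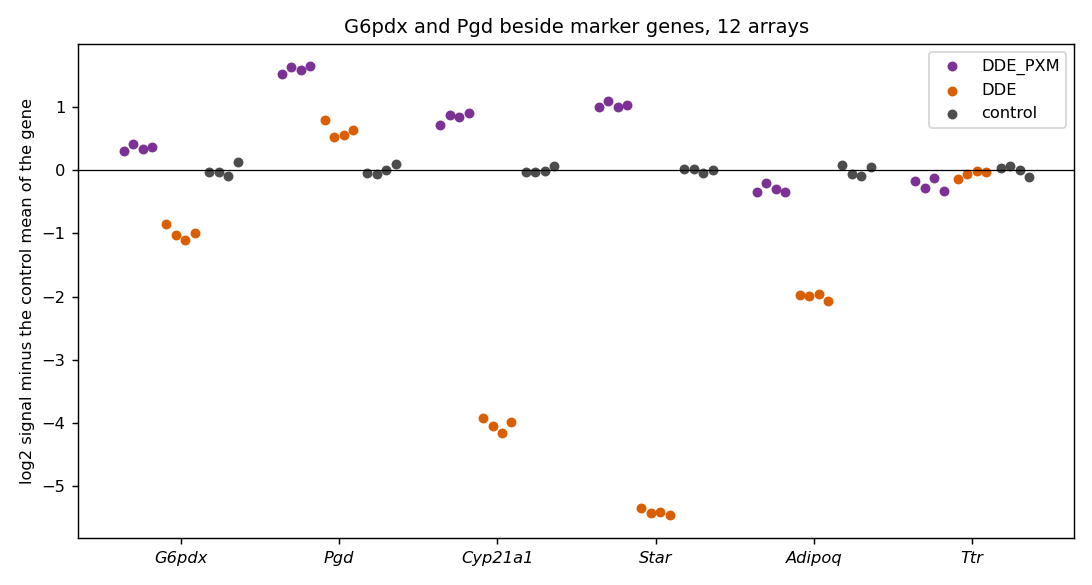
Log2 signal of G6pdx, Pgd and 4 marker genes on each array, minus the control mean of the gene, for DDE_PXM, DDE and control, 1 point an array. G6pdx, Cyp21a1, Star and Adipoq all drop in DDE, Star by -5.41, whereas Pgd lies above its control mean in DDE. Adipoq is 1 of 10 adipocyte markers, of which 2 were higher and 6 lower in DDE against control. In DDE_PXM against DDE, 4 of the adipocyte markers were higher and 3 lower. Ttr is 1 of the 9 hepatocyte markers, whose median was -0.314 in DDE_PXM against control.

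The other genes of the pathway are given as a list, chosen with earlier results of these data known. For this list and those below, 50.3% of all tested genes were called in DDE against control, 24.0% higher and 26.3% lower. In DDE_PXM against DDE 49.9% were called, 20.2% higher and 29.7% lower. The medians over all genes were -0.0239 and -0.0402. Of 13 tested (Tktl1 and Tktl2 did not pass the filter), 4 were higher and 1 lower in DDE against control (median 0.132), and 5 were higher and 3 lower in DDE_PXM against DDE (median 0.0497). G6pd2, described below, was not well above background in DDE or control, and without it 4 of 12 were higher and none lower (median 0.160), and 4 were higher and 3 lower (median 0.033). With each array centred on its median instead, and G6pd2 included, the splits were 11 higher and 1 lower, and 7 higher and none lower. Gpi1, which links glucose 6-phosphate to glycolysis, was higher by 0.30 in DDE against control (adjusted p = 8.05e-05) and by 0.61 in DDE_PXM against DDE (adjusted p = 3.17e-07). Shpk, which phosphorylates sedoheptulose, and Tigar, known for steering glucose carbon toward the pathway, were higher in DDE_PXM than in DDE by 0.33 and 0.38 (adjusted p = 8.38e-05 each).

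G6pd2 is an intronless copy of G6pdx whose transcript resembles it closely. Its probe averaged -4.30 in DDE_PXM, -6.22 in DDE and -4.85 in control, and was not well above background on any DDE or control array, so the call between those groups rests on values below background and has no fold. It passed the filter through the DDE_PXM arrays alone. In DDE_PXM it was at least 1.27-fold higher than in DDE, counted against the lowest signal well above background on each array, a bound without a test. How far the 2 genes' transcripts bind each other's probes was not checked.

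Of 16 tested genes that supply NADPH by other routes or feed them, including folate enzymes (Aldh1l2 did not pass the filter), 8 were higher and 3 lower in DDE against control (median 0.157), and 5 were higher and 2 lower in DDE_PXM against DDE (median 0.0546). With median centring these were 10 and 2, and 9 and 2. The shares over all tested genes were 24.0% higher and 26.3% lower, and 20.2% and 29.7%, in the same order. Aco1, which makes the isocitrate that Idh1 uses, was higher by 0.50 in DDE against control (adjusted p = 9.64e-06) and by 0.43 in DDE_PXM against DDE (adjusted p = 3.16e-05). Me3, the mitochondrial relative of Me1, went the other way: it averaged -2.11 in DDE_PXM, -1.71 in DDE and -0.38 in control, and fell by 1.32 in DDE against control (adjusted p = 4.48e-08). Idh2, the mitochondrial relative of Idh1, was higher by 0.21 in DDE against control (adjusted p = 0.00183) and by 0.0075, without a call, in DDE_PXM against DDE (adjusted p = 0.901). Aldh1l1, a folate enzyme that makes NADPH, was higher by 0.46 in DDE_PXM against DDE (adjusted p = 6.98e-06).

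Pathways that spend NADPH were listed as well, with members that do not use it themselves, such as Acly and Srebf1. Among all tested genes, 24.0% were higher and 26.3% lower in DDE against control, and 20.2% and 29.7% in DDE_PXM against DDE. Of 14 tested genes of reduction and detoxification, 11 were higher and none lower in DDE against control (median 0.462), and 5 were higher and 5 lower in DDE_PXM against DDE (median 0.0606, with 8 higher and 2 lower under median centring). Gsr, which reduces oxidised glutathione, rose 1.61-fold in DDE against control (adjusted p = 6.99e-08) and was 1.29-fold higher in DDE_PXM than in DDE (adjusted p = 1.09e-05). Cbr1, a carbonyl reductase, averaged 3.51 in DDE_PXM, 4.51 in DDE and 3.78 in control. It was 1.66-fold higher in DDE than in control (adjusted p = 2.34e-06), and fell by 1.01 in DDE_PXM against DDE (adjusted p = 1.77e-07). Nqo1, a quinone reductase, was 1.20-fold higher in DDE than in control (adjusted p = 0.00082) and lower in DDE_PXM than in DDE, with a change of -0.16 (adjusted p = 0.016).

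Of 10 tested targets of NRF2 and glutathione synthesis genes, a set that in mice also takes in G6pdx, Pgd, Tkt, Taldo1 and Me1, 7 were higher and 1 lower in DDE against control (median 0.505). In DDE_PXM against DDE, 4 were higher and 3 lower (median -0.0465). With quantile normalisation the splits were 7 higher and none lower, and 5 higher and 2 lower. All tested genes had, in the main fit, 24.0% higher and 26.3% lower, and 20.2% higher and 29.7% lower. Gclm, the regulatory subunit of the enzyme that limits glutathione synthesis, rose 2.81-fold in DDE against control (adjusted p = 1.66e-09) and was 1.32-fold higher in DDE_PXM than in DDE (adjusted p = 7.78e-05). Srxn1, which repairs peroxiredoxins, rose 2.34-fold in DDE against control (adjusted p = 2.24e-07) and changed by -0.09 in DDE_PXM against DDE (adjusted p = 0.374).

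Of 13 tested genes of fat synthesis and its control, 1 was higher and 8 lower in DDE against control (median -0.345), and 12 were higher and none lower in DDE_PXM against DDE (median 0.974). The first split was 4 higher and 4 lower under median centring, and none higher and 8 lower under quantile normalisation. Fasn, fatty acid synthase and the main NADPH user among them, averaged 8.47 in DDE_PXM, 6.70 in DDE and 7.11 in control, where only 2 control arrays gave a value because outlier spots were left out. Acly, ATP citrate lyase, averaged 7.34 in DDE_PXM, 5.36 in DDE and 6.05 in control. G6pdx shared this order of groups, DDE lowest and DDE_PXM highest, whereas Me1 was higher in DDE than in control. Of 12 tested sterol synthesis genes, 6 were higher and 3 lower in DDE against control (median 0.105, with 7 higher and none lower under median centring), and 11 were higher and 1 lower in DDE_PXM against DDE (median 0.565). The count of 9 called sterol genes in DDE against control was 4 without control replicate 1 and 5 without DDE replicate 4. Shares over all tested genes were 24.0% higher and 26.3% lower in DDE against control, and 20.2% and 29.7% in DDE_PXM against DDE.

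Of 11 tested sugar-responsive genes, 3 were higher and 2 lower in DDE against control (median -0.013, with 6 higher and 1 lower under median centring), and 6 were higher and 2 lower in DDE_PXM against DDE (median 0.212). For all tested genes the shares were 24.0% higher and 26.3% lower, and 20.2% and 29.7%. Pklr, the liver pyruvate kinase and a known target of the sugar sensor ChREBP, averaged 1.67 in DDE_PXM, 0.46 in DDE and 0.49 in control. It was 2.32-fold higher in DDE_PXM than in DDE (adjusted p = 6.21e-07). Fgf21 and Txnip of the same list went the other way. Fgf21 averaged -2.05 in DDE_PXM and -1.09 in DDE, and Txnip 4.34 and 4.76.

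**Figure D5:**
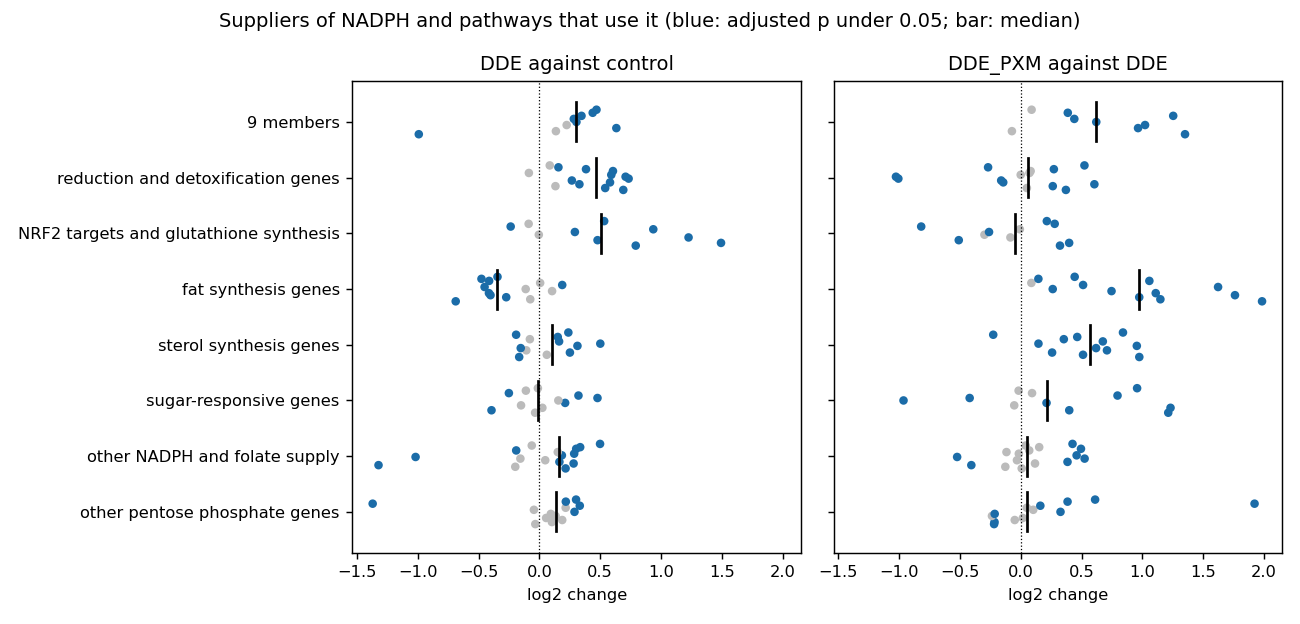
Log2 change of each gene in DDE against control (left) and DDE_PXM against DDE (right) for the 9 members and for lists of pathways that spend NADPH, NRF2 targets, sugar-responsive genes and further suppliers; blue points had an adjusted p under 0.05 and black bars are medians. The members have medians of 0.304 and 0.621, and the fat synthesis genes of -0.345 and 0.974.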

How the data were processed

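Liver RNA was labelled with Cy3 and hybridised to one-colour Agilent arrays, per the labels. The scanner files, as deposited, give a processed intensity per spot, detrended spatially and multiplicatively per the file headers. Per the submitters' processing notes, the tools were limma, RMA and Agilent Feature Extraction 11.5.1.1, whose roles are not stated. The authors' deposited values for the same arrays served as an alternative. The authors' log2 scale was inferred from correlations of 0.994 to 0.9956 with the log2 processed signal, and column medians were 4.991 to 5.033. How the authors normalised and centred their log2 values before they were deposited is not stated.

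Each processed signal was divided by the 75th percentile of its array (59305 spots, controls left out) and then put on a log2 scale. That percentile was 691.6 to 709.7 in DDE_PXM, 550.6 to 661.8 in DDE and 492 to 569.9 in control. Spots marked as outliers (102 to 177 per array) were left out and spots of a probe averaged. A probe was kept if some group had it well above background on its 4 arrays, which left 27098 of 56605 probes, and the brightest of these stood for its gene (18678 genes). Gene names and mm9 coordinates are those of the scanner files.

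One fit with limma 3.58.1 (R 4.3.3, files read with the package data.table, version 1.17.8) covered the 12 arrays with the group as only term (9 residual degrees of freedom), with eBayes and Benjamini-Hochberg adjustment over all genes. Single probes were fitted likewise. Differences between 2 members and the likeness of G6pdx were added after the data were seen. Members, lists and alternatives were chosen with earlier results of these data known. All 9 members are named. From each list up to 4 genes with the smallest p of a comparison, or genes named in the rule, were eligible. Alternatives were other scalings and background corrections, the deposited values, other filters, the mean of a gene's probes, other moderation, slide or replicate number as a term, and each array left out. On simulated data with 50 genes changed by 0.25, 0.5, 1 and 2 each in DDE against control (18628 genes fitted), 34%, 58%, 96% and 100% were called, with 10 unchanged genes called. Few genes changed in that simulation, whereas 50.3% of tested genes were called in the data. The adjustment acts differently there, so these rates do not say how often such changes are called in the data.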

Additional observations from a re-analysis of the deposited data

Results flagged for a closer look

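In 4 of the 27 sets of 4 arrays checked (9 genes in 3 groups), the highest or lowest array stood far from the other 3 of its group. Chance alone gives about 1 in 20 such sets. Rpia was 1.32 in DDE_PXM replicate 2, against 0.09 to 0.20 on the other DDE_PXM arrays. Rpia was -0.35 in DDE replicate 1, against -0.69 to -0.64 on the other DDE arrays. Taldo1 was 4.38 in DDE replicate 1, against 4.57 to 4.58 on the others. Tkt was 4.96 in control replicate 1, against 5.38 to 5.43 on the other control arrays.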

How the results depend on the processing

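Over 27 alternatives, the number of the 9 genes called was 6 to 8 in DDE against control. It was 6 to 9 when DDE_PXM was set against DDE, and 8 or 9 when it was set against control. Leaving out 1 array gave 6 to 8, 7 and 8. Of 243 gene values in each comparison, 221, 233 and 238 kept their direction and their side of the threshold. Pgls reversed in 6 of them: with the mean of a gene's probes it changed by -0.035 in DDE against control (adjusted p = 0.681) and by -0.098 in DDE_PXM against control (adjusted p = 0.198), and in DDE_PXM against DDE it changed by 0.25 with quantile normalisation, 0.24 with normexp and quantile together, 0.070 with median centring and 0.36 with the deposited values. Otherwise Pgls gained a call in 10 alternatives of DDE against control, Tkt lost its call in 9, H6pd gained one in 5 of DDE_PXM against DDE, and Idh1 lost 2 with the mean of its probes. Pgls also gained a call in 4 scalings of DDE_PXM against control (0.44 to 0.61), and Rpia gained one in DDE against control without DDE_PXM replicate 2. The causes were not tested. Median centring moved the median of all genes to 0.207, 0.103 and 0.317 in the 3 comparisons. Within single slides, which each were 1 scan, 25 of 81 values moved by more than 1 SD. Sign changes were counted for called genes only, and none was found. Pgls, where it was not called, did change sign. It was -0.027 on slide 1 in DDE against control and 0.048 on slide 2 in DDE_PXM against DDE. In DDE_PXM against control it was -0.015 on slide 3. The 8 differences between 2 members that had the smallest exact p kept their sign in all 27 alternatives. Counts for the companion lists moved by over 1.5 times in 42 of 648 cases, of which 31 were of the 4 partners of H6pd in the endoplasmic reticulum, where 1, 2 and 1 called genes in the 3 comparisons became at most 3, 4 and 4. For other pentose phosphate genes in DDE against control, 5 became 12 with median centring and 8 with the mean of probes, and in DDE_PXM against control 6 became 11. For other suppliers in DDE_PXM against DDE, 7 became 11 under 4 scalings, and for sugar-responsive genes in DDE against control 5 became 3 with the deposited values or the mean of probes. With replicate number as a block, 8, 7 and 8 genes were called in the 3 comparisons. Deviations of same-numbered arrays correlated between -0.368 and 0.132. Differently numbered arrays were not compared in this way, so whether the numbers pair the samples cannot be told from these values.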

Other observations

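DDE replicate 1 was the highest or the lowest array of its group for all 9 genes, the highest for 4 (G6pdx, Pgls, Pgd and Rpia) and the lowest for 5 (Tkt, Taldo1, Me1, Idh1 and H6pd). The other 3 DDE arrays were at an extreme for 3 genes each. It was the only DDE array on slide 5, which it shared with DDE_PXM replicate 4. G6pdx in DDE_PXM against DDE ranged from 1.23 to 1.44 within slides, and in DDE against control from -1.08 to -0.94.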
